A study of Mus musculus with 3 samples.

Results

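The colony-stimulating factors and interleukin-34 are secreted proteins that keep macrophages and neutrophils alive and drive their production, and their levels were followed here together with those of their receptors. The 8 genes Csf1, Il34, Csf2, Csf3, Csf1r, Csf2ra, Csf2rb and Csf3r were taken by symbol from the 32285 genes of the deposited count tables. All 8 had UMIs (unique molecular identifiers, each counting 1 RNA molecule) in every library. The data are single-cell RNA profiles of the aortic adventitia, the outer connective tissue layer of the vessel. Mice received angiotensin II, a peptide hormone that raises blood pressure, together with voluntary wheel running (AngII_VWR), angiotensin II alone (AngII), or saline (Vehicle). Each group had 3 mice and 1 library, the labels do not say how the mice were combined, and strain, age, sex, dose and duration were not given in the sources used here. With 1 library per group no test between groups was possible, so every interval below is a 95% interval for counting error only.

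CSF1, encoded by Csf1, and IL-34, encoded by Il34, bind the same receptor tyrosine kinase, CSF1R, whose signal most tissue macrophages need to survive. In many tissues fibroblasts and other stromal cells supply CSF1, while IL-34 is best known from neurons and keratinocytes. GM-CSF, encoded by Csf2, is made by activated T cells and innate lymphoid cells and acts through an alpha chain, encoded by Csf2ra, paired with a common beta chain, encoded by Csf2rb. G-CSF, encoded by Csf3, drives neutrophil production through its receptor, encoded by Csf3r.

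Ligands were read in fibroblasts, defined as barcodes in which Col1a1, Col1a2, Dcn and Lum made up at least 1% of UMIs, and in other stroma. Receptors were read in leukocytes, and the names of all populations mean only that the barcodes passed a cut on the marker genes of that cell type. There were 10926 fibroblasts in AngII_VWR, 6068 in AngII and 6523 in Vehicle, of which 5 in AngII_VWR, 1 in AngII and 19 in Vehicle also passed the smooth muscle cut. There were 3244 macrophages in AngII_VWR, 2033 in AngII and 2529 in Vehicle. Barcodes with fibroblast genes within a factor of 0.8 of the cut on either side numbered 1047, 323 and 1353 in AngII_VWR, AngII and Vehicle, and barcodes equally close to the macrophage cut 222, 34 and 43. Fmod, Col1a1 and Lum were among the 10 genes that led the fibroblasts and C1qa, Mrc1 and F13a1 among the 10 that led the macrophages. Of these, Col1a1, Lum, C1qa and Mrc1 are marker genes of the cuts themselves, so their lead was set by the cuts. Fmod and F13a1 are not among the marker genes. The AngII_VWR library was the shallowest, with a median of 4476 UMIs per kept cell, against 13125 in AngII and 9386 in Vehicle. Barcodes shared by 2 libraries numbered 68 between AngII_VWR and AngII, 80 between AngII_VWR and Vehicle and 44 between AngII and Vehicle, of 10515 to 19633 per library.

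RefSeq promoter sequences of build GRCm38.p6 were held for 4 of the 8 genes. The 250 bases before the RefSeq start are shown for the ligand that fibroblasts carried and for 2 receptor chains of leukocytes, written in the direction of transcription. Capitals mark matches to the NF-kappaB motif in Csf1, searched as GGG, 2 free bases and TTTCC,, to the cyclic AMP response element TGACGTCA in Csf2ra and to the PU.1 core GAGGAA in Csf2ra and Csf3r, on either strand. Csf1 lies on the minus strand at chr3:107760470-107760719, Csf2ra on the minus strand at chr19:61228419-61228668 and Csf3r on the plus strand at chr4:126024409-126024658.
Csf1: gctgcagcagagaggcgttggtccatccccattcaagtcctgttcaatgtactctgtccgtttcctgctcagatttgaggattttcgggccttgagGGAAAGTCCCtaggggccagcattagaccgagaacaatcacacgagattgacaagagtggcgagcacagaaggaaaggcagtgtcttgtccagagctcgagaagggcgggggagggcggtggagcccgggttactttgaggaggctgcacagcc
Csf2ra: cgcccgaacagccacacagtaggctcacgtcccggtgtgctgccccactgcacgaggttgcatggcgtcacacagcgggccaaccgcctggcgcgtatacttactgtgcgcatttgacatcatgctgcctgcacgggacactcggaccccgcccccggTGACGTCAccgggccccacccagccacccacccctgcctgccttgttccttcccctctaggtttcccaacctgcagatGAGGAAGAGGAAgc
Csf3r: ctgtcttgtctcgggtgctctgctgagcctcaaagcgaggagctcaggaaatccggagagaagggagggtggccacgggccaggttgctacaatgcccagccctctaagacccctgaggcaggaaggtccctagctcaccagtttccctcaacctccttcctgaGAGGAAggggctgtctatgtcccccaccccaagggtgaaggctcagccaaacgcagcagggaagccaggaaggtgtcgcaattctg
The NF-kappaB match in Csf1 begins 154 bases before the start, and 1.40% of the 27025 promoter windows of that length held such a match. The response element in Csf2ra begins 92 bases before the start and was present in 1.62% of windows. The PU.1 core occurs at 14 and 8 bases before the start in Csf2ra and at 86 bases in Csf3r, and 23.1% of windows held it. These distances are from the RefSeq start, which differs in Csf2ra and Csf3r from the gene annotation given below. The windows of these 2 genes overlap the annotated genes, and their PU.1 matches lie wholly or partly inside them. Of the other motifs searched on both strands, the SP1 motif GGGCGG, held by 32.9% of windows, occurs at 51 and 41 bases in Csf1 and at 102 bases in Csf2ra. The AP-1 motif TGANTCA, the STAT motif TTCNNNGAA and the C/EBP motif TTGCNNAA were not in these 3 windows. A match describes letters and says nothing of binding.

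In the gene annotation of GRCm38 the ligand genes were Csf1 (ENSMUSG00000014599) at chr3:107741048-107760469, Il34 (ENSMUSG00000031750) at chr8:110741829-110805924, Csf2 (ENSMUSG00000018916) at chr11:54247271-54249667 and Csf3 (ENSMUSG00000038067) at chr11:98701263-98703629. The receptor genes were Csf1r (ENSMUSG00000024621) at chr18:61100598-61132149, Csf2ra (ENSMUSG00000059326) at chr19:61223957-61228429, Csf2rb (ENSMUSG00000071713) at chr15:78325752-78353847 and Csf3r (ENSMUSG00000028859) at chr4:126024550-126044440. Counts are per gene, so no exon or transcript was told apart.

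Csf1, the main ligand of CSF1R, was the only ligand of the 4 that was carried broadly by fibroblasts, and its level there was lower in AngII than in Vehicle and lowest in AngII_VWR. Fibroblasts had 138 UMIs of Csf1 per 1000000 UMIs of the population (CPM, interval 135 to 141) in AngII_VWR, 153 CPM (151 to 156) in AngII and 197 CPM (194 to 200.04) in Vehicle, from 8071, 12563 and 14276 UMIs. None of these intervals overlap. The AngII level was 0.780 times the Vehicle level (0.761 to 0.799, log2 ratio of CPM + 1 of -0.36), and the AngII_VWR level was 0.901 times the AngII level (0.876 to 0.926, log2 ratio -0.15). Neither difference passed the 1.5-fold used here as a size threshold. Csf1 was detected in 43.3% of fibroblasts in AngII_VWR, 66.2% in AngII and 64.1% in Vehicle. Among fibroblasts with at least 2000 UMIs, thinned to 2000 each, it was detected in 23.2%, 23.5% and 28.8%. This left out 2157, 474 and 1010 shallower fibroblasts of AngII_VWR, AngII and Vehicle. The gap between AngII_VWR and AngII in the unthinned shares did not remain in these deeper cells at equal depth.

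The lower Csf1 level in AngII held within the clusters that fibroblasts fell into. Clusters were built from other variable genes, and in the 6 with at least 50 fibroblasts in each of AngII and Vehicle the AngII level was the lower in all 6. Cluster 3, led by Dact2, Cd55 and Dpp4, had 197 CPM in AngII and 209.9 in Vehicle. Cluster 8, led by Saa3, an acute-phase protein gene, and Cfd had 209 CPM in AngII and 255 in Vehicle. Cluster 6, led by Egflam and Mdga2, had 172 CPM in AngII and 218 in Vehicle. Clusters 6 and 8 did not meet the rule by which a whole cluster was taken as fibroblasts. Their levels here cover only their barcodes past the fibroblast rule. Cluster 7, led by Angptl7 and Vegfd, had 148.5 CPM in AngII and 149.5 in Vehicle, which differed by less than counting error. Between AngII_VWR and AngII the clusters were divided, 3 being higher and 4 lower in AngII_VWR. The widest of these gaps was in cluster 8, at 122 CPM in AngII_VWR and 209 in AngII. With whole clusters as populations, which left out clusters 6 and 8, the log2 ratio of AngII_VWR over AngII was -0.0121, against -0.15. Cluster 9, led by Thbs4 and Tnc, reached 50 fibroblasts in AngII only, with 1319 cells, and its level of 112 CPM was below the AngII average.

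**Figure D1:**
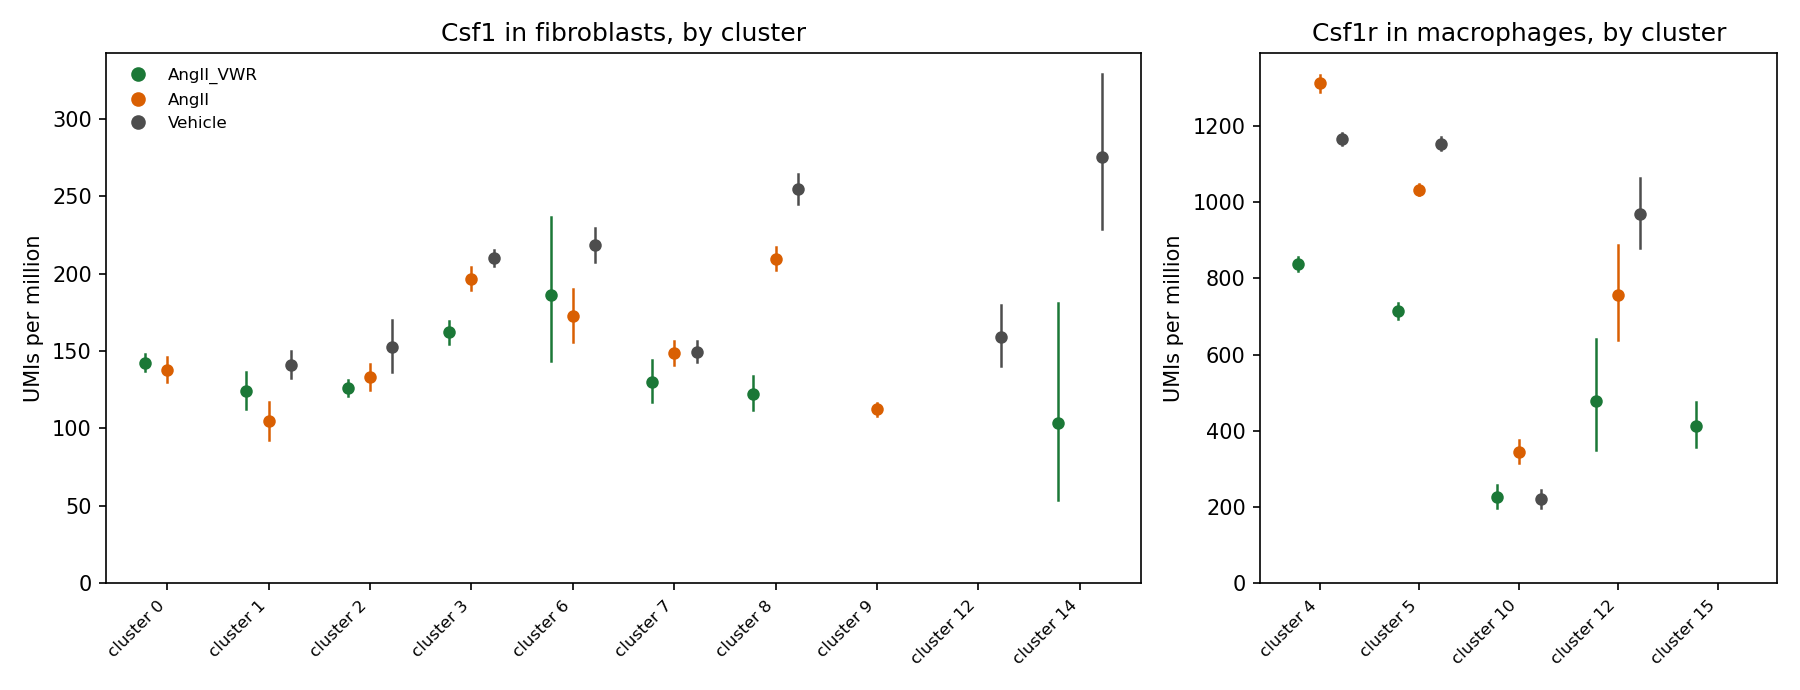
Level of Csf1 in fibroblasts (left) and of Csf1r in macrophages (right) by cluster, in CPM (y axis), for clusters with at least 50 such cells in a library; points are libraries and bars are 95% Poisson intervals. In 6 of 6 shared clusters Csf1 was lower in AngII than in Vehicle, and Csf1r was lower in AngII_VWR than in AngII in clusters 4 and 5; clusters 10, 12 and 15 on the right are led by genes of dendritic cells, mast cells and neutrophils and show only their barcodes past the macrophage cut.

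Csf1 also varied with how strongly a cell expressed the matrix genes that define fibroblasts. In AngII_VWR cells with these genes at 1 to 2%, 2 to 4% and over 4% of UMIs had 153, 138 and 108 CPM of Csf1. In AngII the same 3 bins had 218, 157 and 125 CPM, and in Vehicle 223, 178 and 142 CPM. Csf1 was lower in each higher bin in every library, and within each bin AngII lay below Vehicle, in the lowest bin with overlapping intervals. AngII_VWR lay below AngII within each bin, with intervals that did not overlap. Just outside the fibroblast rule, barcodes at 0.5 to 1% had 155 CPM in AngII_VWR, 172 CPM in AngII and 189 in Vehicle. In AngII and Vehicle these levels were below those of the 1 to 2% bin, so the trend did not extend there. Median depth of these barcodes was 2485, 2380 and 2435.5 UMIs in AngII_VWR, AngII and Vehicle. In the 1 to 2% bin it was 4642.5, 10970.5 and 10357.5 UMIs. The summed level of the 7 fibroblast markers, of which all 7 were detected in each library, was 37113 CPM in AngII_VWR, 52262 CPM in AngII and 33003 in Vehicle, and the part of matrix gene levels in the Csf1 ratios beyond these bins was not tested.

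Outside fibroblasts, the cells with the most Csf1 per UMI were neutrophils, of which few were found outside AngII_VWR. They had 459.6 CPM (388 to 540.2) in AngII_VWR from 179 cells, above the level in fibroblasts of the same library. The 11 neutrophils of AngII gave 644 CPM (408 to 967) and the 4 of Vehicle 631 CPM (374 to 998), with wide and overlapping intervals. Free RNA from fibroblasts, scaled by the fibroblast genes found in neutrophils, would give 13.9 CPM in AngII_VWR, 4.68 CPM in AngII and 6.23 in Vehicle. Macrophages, the cells that need CSF1, had 13.9 CPM in AngII_VWR, 13.2 CPM in AngII and 14.4 in Vehicle, with overlapping intervals, against 5.80, 1.71 and 3.33 CPM on the same free RNA scale. Smooth muscle cells, of which Vehicle alone had over 50, gave 29.6 CPM (26.5 to 32.9) there, against 12.7 CPM on the free RNA scale. The 73 pericytes of Vehicle gave 154 CPM (100.4 to 225), against 48.6 CPM on that scale, since their fibroblast markers stood at 24.7% of the fibroblast level. Their median depth was 1493 UMIs. Of the 10 genes that led the pericytes over all libraries, only Notch3 and Abcc9 were pericyte markers. Another, Gpr39, was also among the genes that led cluster 6, so the label of these barcodes is weak. Endothelial cells had 35.3 CPM in AngII_VWR and 17.9 in AngII, against 7.14 and 2.54 CPM on that scale. The 34 endothelial cells of Vehicle had 138 CPM, of which 33 of 84 UMIs came from 1 cell. T and innate lymphoid cells had 31.4 CPM in AngII_VWR, 21.6 CPM in AngII and 31.01 in Vehicle, with overlapping intervals, against 8.62, 2.21 and 5.53 CPM on that scale. Fibroblasts gave 88.2%, 93.0% and 83.6% of all Csf1 UMIs in AngII_VWR, AngII and Vehicle.

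**Figure D2:**
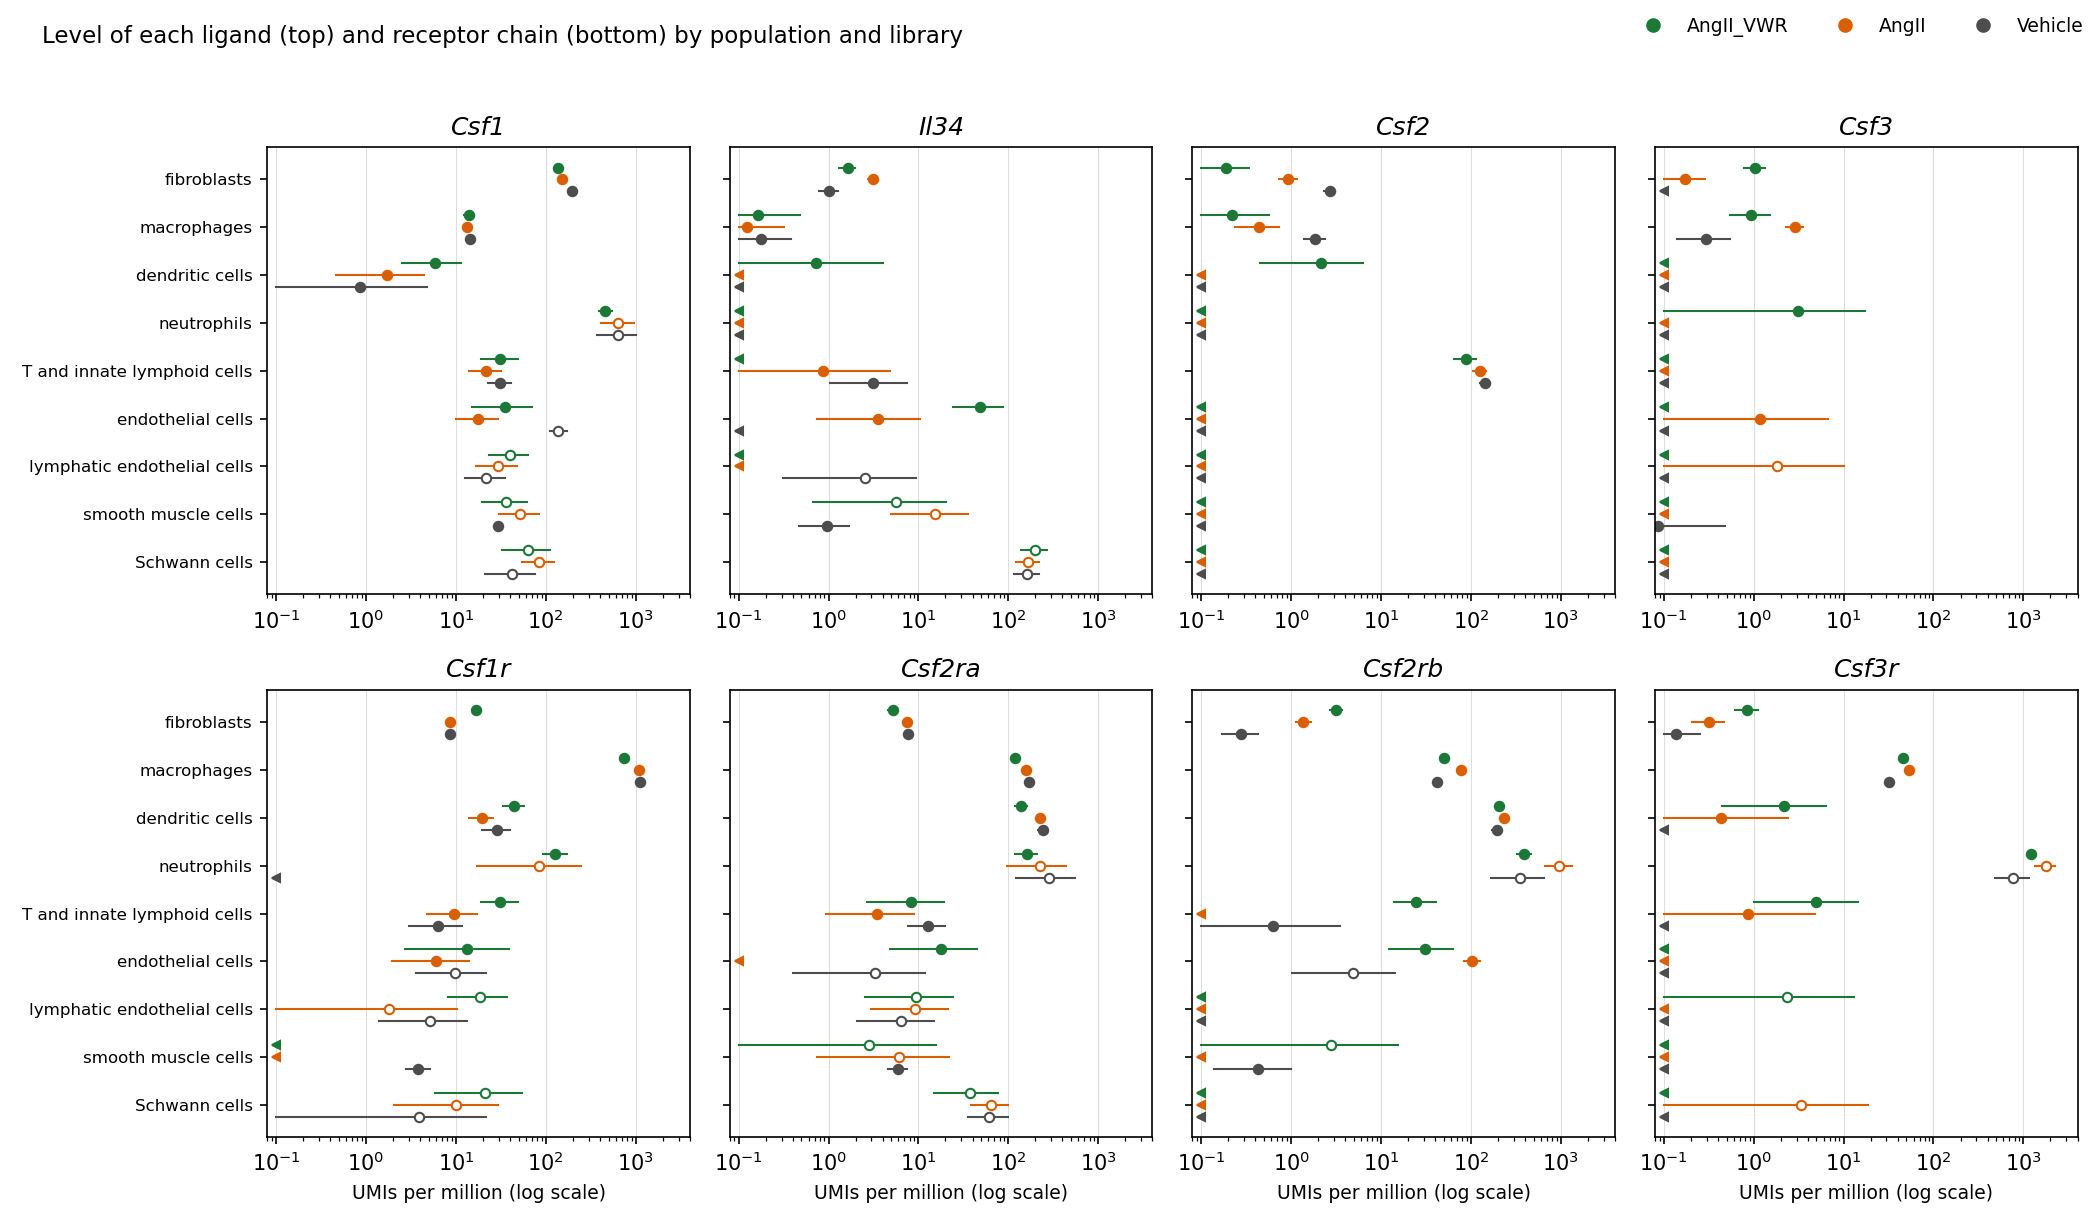
Level of the 4 ligands (top) and 4 receptor chains (bottom) in 9 populations (y axis) and 3 libraries, in CPM on a log scale (x axis); bars are 95% Poisson intervals, open circles mark fewer than 50 cells and triangles at the left edge a count of 0. Csf1 is high in neutrophils and fibroblasts, Il34 is highest in Schwann cells, Csf2 in T and innate lymphoid cells, Csf1r in macrophages and Csf3r in neutrophils.

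Il34, the other ligand of CSF1R, stood out in Schwann cells, the glia of peripheral nerves, which run in the adventitia. Schwann cells had 197 CPM (139 to 271) in AngII_VWR, 164 CPM (122 to 217) in AngII and 162 CPM (116 to 218) in Vehicle, from 37, 49 and 42 UMIs. The 3 intervals overlap, and the AngII over Vehicle ratio was 1.02 (0.660 to 1.57). These populations held 45, 28 and 30 cells, and 35.6%, 67.9% and 63.3% of them had an Il34 UMI. Of the 6 Schwann markers, 5 were detected in each library. Schwann cells were 0.279% of kept cells in AngII_VWR, 0.307% in AngII and 0.243% in Vehicle, and gave 22.3%, 14.9% and 26.4% of all Il34 UMIs in AngII_VWR, AngII and Vehicle. Fibroblasts had 1.63 CPM (1.32 to 1.99) of Il34 in AngII_VWR, 3.10 CPM (2.73 to 3.51) in AngII and 1.01 CPM (0.789 to 1.27) in Vehicle, under the 5 CPM needed for a gene to count as measured. Being the most numerous cells, they still gave 57.2%, 77.2% and 45.9% of all Il34 UMIs in AngII_VWR, AngII and Vehicle. In AngII a single fibroblast carried 48 of the 254 UMIs, and without the 5 barcodes richest in Il34 in each library the log2 ratio of AngII over Vehicle was 0.80, against 1.03 with them. Endothelial cells had 11 Il34 UMIs in 61 cells in AngII_VWR, 3 UMIs in 138 cells in AngII and 0 UMIs in 34 cells in Vehicle. Macrophages had 3, 4 and 6 Il34 UMIs in AngII_VWR, AngII and Vehicle.

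**Figure D3:**
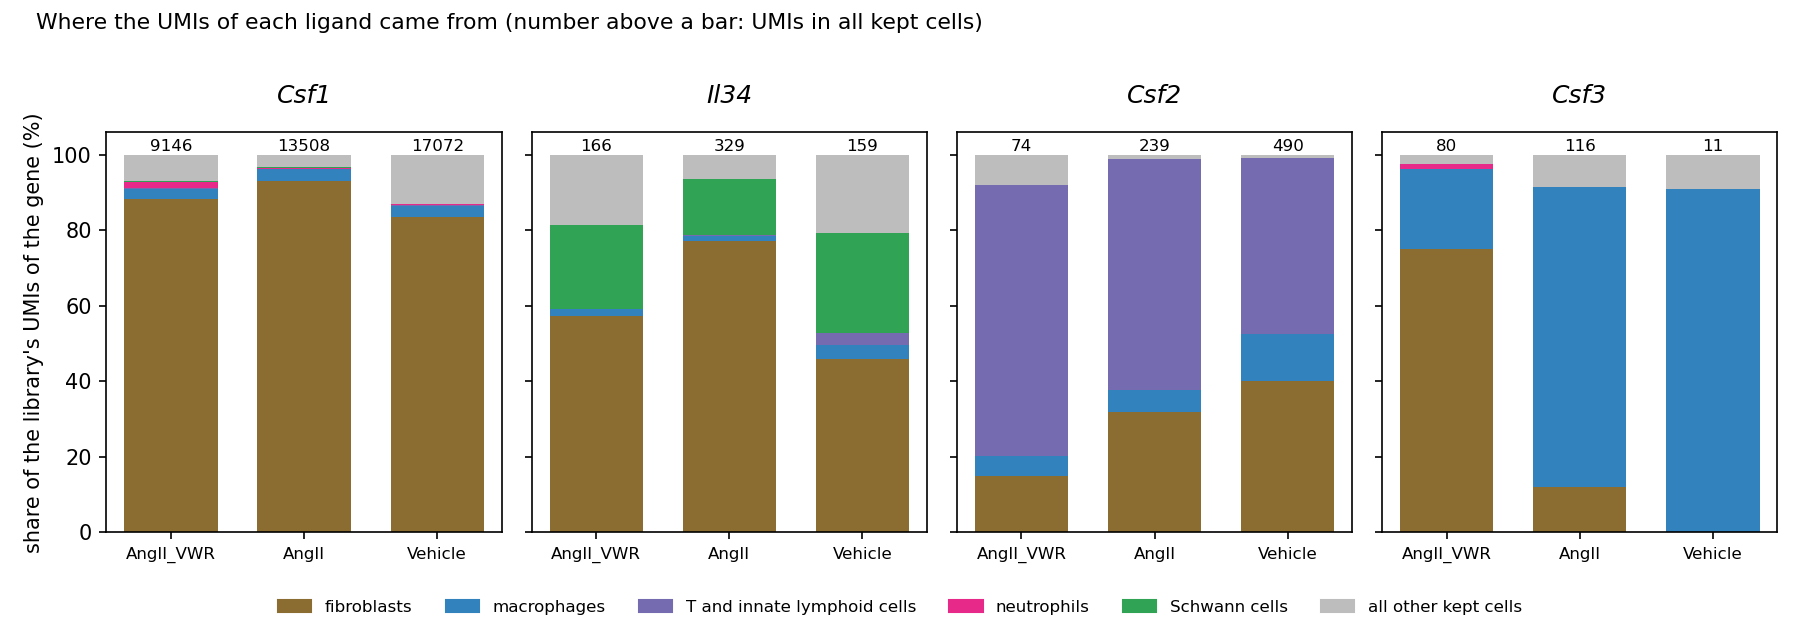
Share of each library's UMIs of a ligand that came from each population (y axis, %), with the number of UMIs in all kept cells above each bar. Fibroblasts gave most Csf1, Schwann cells a visible part of Il34, T and innate lymphoid cells most Csf2 in AngII_VWR and AngII, and Csf3 rested on 80, 116 and 11 UMIs in AngII_VWR, AngII and Vehicle.

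Csf2, which encodes GM-CSF, belonged to T and innate lymphoid cells. They had 87.5 CPM (65.5 to 114) in AngII_VWR, 126 CPM (107 to 149) in AngII and 144 CPM (126 to 164) in Vehicle, from 182, 142 and 214 cells. The AngII over Vehicle ratio was 0.876 (0.707 to 1.08) and the AngII_VWR over AngII ratio 0.692 (0.496 to 0.954), neither of them past 1.5-fold. The AngII_VWR over Vehicle ratio was 0.606 (0.441 to 0.821), which passed 1.5-fold, as did 26.8% of all genes measured in these cells in the lower direction. That call was lost after thinning to 2000 UMIs, at a log2 ratio of -0.34 against -0.72, and with cells of at least 1000 genes and 2000 UMIs, at -0.56. Of these cells with at least 2000 UMIs, 8.63%, 10.3% and 8.53% had a Csf2 UMI at equal depth, so that the order of the shares was not that of the levels. T and innate lymphoid cells gave 71.6% of all Csf2 UMIs in AngII_VWR, 61.1% in AngII and 46.5% in Vehicle.

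In fibroblasts Csf2 UMIs were few and sat in a handful of barcodes. There were 11 UMIs in AngII_VWR, 76 in AngII and 196 in Vehicle, which is 0.188, 0.928 and 2.70 CPM. Barcodes with at least 5 Csf2 UMIs numbered 1, 4 and 8, and the 8 of Vehicle held 161 of its 196 UMIs, 61 of them in 1 barcode. The 1 barcode of AngII_VWR had UMIs of at least 2 of 14 T and innate lymphoid markers, as did 0.0824% of AngII_VWR fibroblasts. None of the 4 of AngII and the 8 of Vehicle had a UMI of any of these markers, which 2.97% of AngII fibroblasts and 3.22% of Vehicle fibroblasts had. In AngII all 4 of these barcodes lay in cluster 8, in Vehicle 1 of 8 did. The 62 Csf2 UMIs of Vehicle macrophages were as concentrated, with 41 in 1 barcode, against 4 UMIs in AngII_VWR macrophages and 14 in AngII macrophages. Of the 3 Vehicle macrophages with at least 5 Csf2 UMIs 1 had a T or innate lymphoid marker, as did 22.6% of all Vehicle macrophages.

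Csf3, which encodes G-CSF, was at the limit of detection. Macrophages had 17 UMIs (0.941 CPM, 0.548 to 1.51) in AngII_VWR, 92 UMIs (2.86 CPM, 2.30 to 3.51) in AngII and 10 UMIs (0.297 CPM, 0.142 to 0.545) in Vehicle. The AngII interval lies above both others, but 49 of the 92 UMIs came from 5 cells, and 1.57% of AngII macrophages had any. Fibroblasts had 60 UMIs in AngII_VWR, 40 of them in 1 cell, 14 in AngII and 0 of 72545271 UMIs in Vehicle, where a count of 0 allows up to 0.0414 CPM. The 2 AngII_VWR fibroblasts with at least 5 Csf3 UMIs both lay in cluster 8, the cluster led by Saa3.

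Csf1r, the receptor for CSF1 and IL-34 and a defining gene of macrophages, was close in AngII and Vehicle macrophages and lower in AngII_VWR. Macrophages had 749.7 CPM (737 to 762) in AngII_VWR, 1086 CPM (1075 to 1097) in AngII and 1113 CPM (1102 to 1124) in Vehicle. The AngII_VWR level was 0.690 times the AngII level (0.677 to 0.704, log2 ratio -0.53), a 1.45-fold lower level that stayed just inside the 1.5-fold threshold. The AngII level was 0.976 times the Vehicle level (0.962 to 0.990). Among macrophages with at least 2000 UMIs, thinned to that depth, Csf1r was detected in 75.8% in AngII_VWR, 85.3% in AngII and 87.2% in Vehicle. Cluster 4, led by Vsig4, Lyve1 and Cd163, genes of resident perivascular macrophages, had 838 CPM in AngII_VWR, 1312 CPM in AngII and 1166 in Vehicle. Cluster 5, led by the MHC class II genes Cd74 and H2-Aa, had 714 CPM in AngII_VWR, 1033 CPM in AngII and 1153 in Vehicle. Against AngII, the AngII_VWR level was thus lower in both clusters, while AngII against Vehicle was higher in cluster 4 and lower in cluster 5. Clusters 10 and 12 also held at least 50 barcodes past the macrophage cut in every library, 2.00% to 8.98% of macrophages each. Cluster 10 was led by Clec9a, Ccl17 and other genes known from dendritic cells. Cluster 12 was led by the mast cell genes Mcpt4, Tpsb2 and Cpa3. By these leading genes they were not read as macrophage clusters. Only 9, 5 and 4 barcodes of AngII_VWR, AngII and Vehicle were classed as mast cells and basophils. The leading genes therefore need not describe the macrophage barcodes of cluster 12. Csf1r in the barcodes of cluster 10 past the macrophage cut was at 226 CPM in AngII_VWR, 344 in AngII and 219.7 in Vehicle, and in those of cluster 12 at 478, 755 and 969 CPM in AngII_VWR, AngII and Vehicle.

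Other features of the macrophages moved with Csf1r between AngII_VWR and AngII. The summed level of the 10 macrophage markers, all detected, was 29313 CPM in AngII_VWR, 35918 CPM in AngII and 34391 in Vehicle. The 7 fibroblast markers, also all detected, summed to 1593 CPM in AngII_VWR macrophages, 640 CPM in AngII and 583 in Vehicle, and the median depth was 5018.5, 15230.0 and 13151 UMIs per macrophage. The median log2 ratio of all 10188 genes measured in AngII_VWR over AngII was 0.17, so against the typical gene the Csf1r log2 ratio was -0.71, past 1.5-fold. The part of these shifts in the Csf1r difference was not tested.

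Csf1r in fibroblasts stayed near the level expected from stray macrophage RNA. Fibroblasts had 16.7 CPM in AngII_VWR, 8.54 CPM in AngII and 8.56 in Vehicle. Csf1r was detected in 7.85%, 10.2% and 7.79% of these cells, against 89.4%, 99.1% and 96.2% of macrophages. At equal depth, among fibroblasts deep enough to be thinned, it was detected in 3.19% in AngII_VWR, 1.59% in AngII and 1.72% in Vehicle. The higher unthinned share in AngII than in AngII_VWR was thus reversed in these deeper cells. Scaling the macrophage level by the macrophage markers found in fibroblasts gave 13.6, 6.69 and 8.13 CPM. The 1.95-fold (1.77 to 2.15) higher level in AngII_VWR than in AngII came with macrophage markers of 532 CPM in AngII_VWR fibroblasts and 221 CPM in AngII fibroblasts, and how much of it is such RNA was not tested. Dendritic cells had 44.2 CPM in AngII_VWR, 19.4 CPM in AngII and 28.5 in Vehicle and T and innate lymphoid cells 31.4, 9.52 and 6.33 CPM, against 48.9, 66.5 and 68.9 CPM and 23.5, 8.58 and 10.96 CPM on the same scale.

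Csf2rb, the common beta chain through which GM-CSF signals, was the receptor gene that differed most between AngII and Vehicle macrophages. Macrophages had 50.1 CPM (46.9 to 53.4) in AngII_VWR, 77.5 CPM (74.5 to 80.6) in AngII and 42.5 CPM (40.3 to 44.7) in Vehicle, and no intervals overlap. The AngII level was 1.83 times the Vehicle level (1.71 to 1.95) and the AngII_VWR level 0.646 times the AngII level (0.598 to 0.697), both past 1.5-fold. At equal depth 8.47% of macrophages in AngII_VWR, 14.001% in AngII and 6.74% in Vehicle had a Csf2rb UMI. The AngII level was the highest in both macrophage clusters. Cluster 5 had 61.0 CPM in AngII_VWR, 77.8 CPM in AngII and 40.7 in Vehicle, and cluster 4 had 35.9 CPM in AngII_VWR, 54.8 CPM in AngII and 35.9 in Vehicle. Weighting these 2 clusters equally, chosen after seeing the data, gave a log2 ratio of 0.78 in AngII over Vehicle, against 0.85 over all macrophages. In AngII_VWR over AngII it gave -0.44, no longer past 1.5-fold, against -0.62. Over all 4 shared clusters, 2 of them not read as macrophage clusters, equal weights gave 0.82 and -1.09, also chosen after seeing the data. The AngII_VWR over AngII ratio passed 1.5-fold in 13 of 14 other settings. The 4 monocyte markers summed to 158 CPM in AngII_VWR macrophages, 201 CPM in AngII and 36.7 in Vehicle, and their part in the Csf2rb difference was not tested. Csf2rb has a close copy in the mouse, Csf2rb2, and reads of the pair can be assigned to either. Csf2rb2 had 16.1 CPM in AngII_VWR macrophages, 20.8 CPM in AngII and 11.95 in Vehicle, the same order as Csf2rb.

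Csf2ra, the alpha chain that binds GM-CSF, did not pass 1.5-fold in macrophages in either comparison. Its level there was 118 CPM (113 to 123) in AngII_VWR, 157 CPM (153 to 162) in AngII and 169 CPM (165 to 173) in Vehicle, a ratio of 0.751 (0.714 to 0.790) for AngII_VWR over AngII and of 0.931 (0.896 to 0.967) for AngII over Vehicle. Dendritic cells had 139 CPM (120.1 to 160.1) in AngII_VWR, 222 CPM (204 to 242) in AngII and 243 CPM (215 to 273) in Vehicle. The 0.625-fold level (0.527 to 0.739) in AngII_VWR over AngII passed 1.5-fold, where 9.38% of 10160 genes measured in dendritic cells were past 1.5-fold downward. After thinning it did not pass, at a log2 ratio of -0.56 against -0.67. Schwann cells also had Csf2ra, with 37.2 CPM (14.97 to 76.7) in AngII_VWR, 63.7 CPM (38.4 to 99.5) in AngII and 61.6 CPM (35.2 to 99.99) in Vehicle, against 3.26, 1.54 and 0.908 CPM on the free RNA scale, while Csf2rb had 0 UMIs in Schwann cells of all 3 libraries. Fibroblasts had 5.15, 7.41 and 7.60 CPM of Csf2ra in AngII_VWR, AngII and Vehicle, against 2.14, 0.969 and 1.24 CPM on that scale.

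Csf2rb was also carried by dendritic cells, neutrophils and endothelial cells. Dendritic cells had 207 CPM (184 to 233) in AngII_VWR, 234 CPM (215 to 254) in AngII and 194 CPM (170.0 to 222) in Vehicle, a ratio of 0.885 (0.764 to 1.02) for AngII_VWR over AngII and of 1.203 (1.03 to 1.41) for AngII over Vehicle. Neutrophils of AngII_VWR had 394 CPM (328 to 469), and the 11 of AngII and the 4 of Vehicle 952 and 351 CPM. Endothelial cells had 30.9 CPM (12.4 to 63.7) from 7 UMIs in AngII_VWR and 104 CPM (83.0 to 128) from 87 UMIs in AngII, and 4.94 CPM from 3 UMIs in the 34 cells of Vehicle. T and innate lymphoid cells had 15 Csf2rb UMIs in AngII_VWR, 10 of them in 1 barcode, 0 in AngII and 1 in Vehicle. The AngII_VWR over AngII difference passed 1.5-fold, as did 18.4% of genes in these cells in the higher direction. The 9, 5 and 4 mast cells and basophils of AngII_VWR, AngII and Vehicle gave 14, 34 and 4 Csf2rb UMIs. Per UMI this was a high level, 776, 1016 and 291 CPM, but it rests on these few cells.

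Csf3r, the G-CSF receptor, was highest in neutrophils. The 179 neutrophils of AngII_VWR had 1229 CPM (1110.2 to 1356), detected in 83.2% of cells, and the 11 of AngII and the 4 of Vehicle had 1764 CPM (1356 to 2257) and 772 CPM (484 to 1168). Macrophages had 45.9 CPM (42.8 to 49.1) in AngII_VWR, 54.0 CPM (51.5 to 56.6) in AngII and 32.0 CPM (30.1 to 33.9) in Vehicle. The AngII level was 1.69 times the Vehicle level (1.56 to 1.82), past 1.5-fold, and the AngII_VWR level was 0.850 times the AngII level (0.781 to 0.924). The 6 neutrophil markers summed in macrophages to 67.8 CPM with 4 of 6 detected in AngII_VWR, 45.01 CPM with 4 of 6 in AngII and 85.8 CPM with 5 of 6 in Vehicle, and their part in the Csf3r difference was not tested. Csf3r gave 54.8% of its UMIs in macrophages and 26.0% in neutrophils in AngII_VWR, against 93.2% and 3.38% in AngII and 94.3% and 1.92% in Vehicle.

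Set against all genes, 2 of the 5 genes of the group that could be measured in macrophages, Csf2rb and Csf3r, passed 1.5-fold in AngII over Vehicle, both higher, where 12.6% of all 9816 genes passed in either direction and 6.65% were higher. In AngII_VWR over AngII 1 of 5 passed, Csf2rb, which was lower, where 19.0% of genes passed and 5.03% were lower. Of the 5, Csf1 had the highest log2 ratio in that comparison, 0.07, and Csf3r, Csf2ra, Csf1r and Csf2rb had log2 ratios of -0.23, -0.41, -0.53 and -0.62, all below the median of all genes. In fibroblasts 3 of the 8 were measured, Csf1, Csf1r and Csf2ra. In AngII over Vehicle 0 of 3 passed, where 11.7% of genes did. In AngII_VWR over AngII 1 passed, Csf1r, beside the macrophage markers given above, where 11.7% of genes passed and 6.81% were higher. Both comparisons use the AngII library, so its value enters each.

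**Figure D4:**
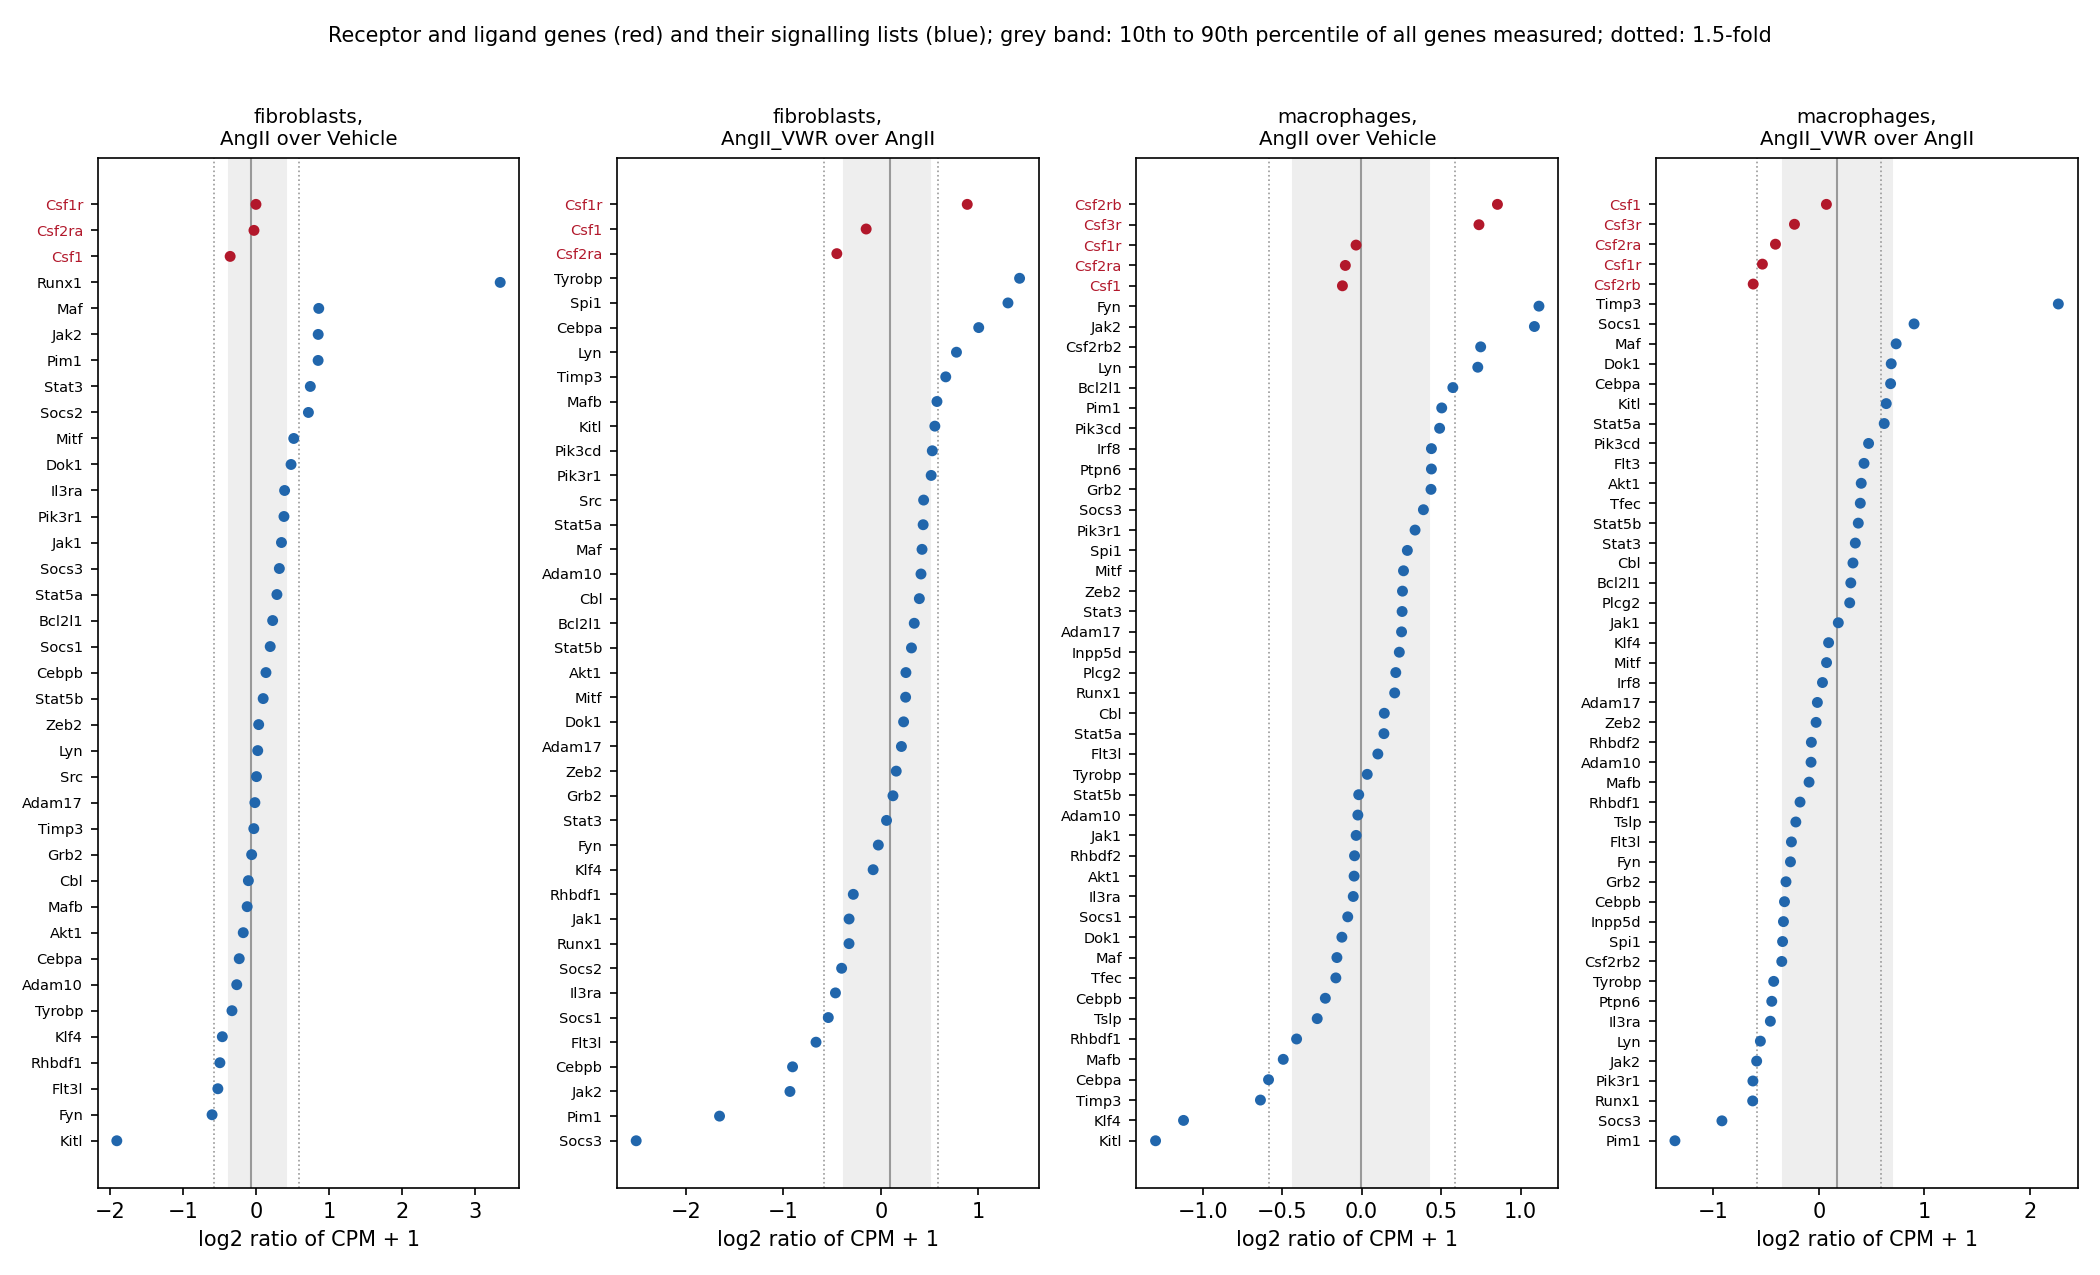
Log2 ratios of CPM + 1 (x axis) in fibroblasts and macrophages for the measured ligand and receptor genes (red) and for genes of 5 related lists (blue), 1 gene per row; the grey band spans the 10th to the 90th percentile of all genes measured, the grey line is their median and the dotted lines are 1.5-fold. Csf2rb and Csf3r stand outside the band in AngII over Vehicle macrophages, and Socs3 and Pim1 at the low end in AngII_VWR over AngII fibroblasts.

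Genes that work beside these ligands and receptors were taken as 5 lists, whose counts past 1.5-fold stand beside the shares of all genes measured. In fibroblasts 6.80% of genes were higher and 4.89% lower in AngII over Vehicle, and 6.81% higher and 4.87% lower in AngII_VWR over AngII. In macrophages the shares were 6.65% higher and 5.95% lower in AngII over Vehicle, and 13.9% higher and 5.03% lower in AngII_VWR over AngII.

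Among other haematopoietic growth factors and receptors, 3 of 11 genes were measured in fibroblasts, and the one that passed 1.5-fold in AngII over Vehicle was Kitl, which encodes stem cell factor, the ligand of KIT on mast cells and blood progenitors. Fibroblasts had 26.5 CPM of Kitl in AngII and 102 CPM in Vehicle, a 3.86-fold (3.68 to 4.05) lower level. The list median was -0.53, against -0.07 for all genes. In macrophages 5 of 11 were measured, of which Csf2rb2 was higher, at 1.74-fold (1.53 to 1.97), and Kitl lower, at 55.6 CPM in AngII and 138 in Vehicle. In AngII_VWR over AngII fibroblasts 1 of 3 passed, Flt3l, the growth factor of dendritic cells, which was lower at 14.5 CPM in AngII_VWR and 23.6 in AngII. In macrophages 1 of 6 passed in that comparison, Kitl, which was higher at 87.2 CPM in AngII_VWR and 55.6 in AngII. Of these calls, Csf2rb2 did not pass after thinning, at a log2 ratio of 0.55, Flt3l with Leiden clusters or a 2% fibroblast rule, at -0.56 and -0.58, and Kitl in AngII_VWR over AngII macrophages after thinning or with median-ratio scaling, at 0.54 and 0.47. The medians were -0.47 in these fibroblasts and -0.24 in these macrophages.

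Of the kinase and feedback genes of the GM-CSF and G-CSF receptors, 4 of 10 measured were higher and 0 lower in AngII over Vehicle fibroblasts, with a list median of 0.33 against -0.07 for all genes. The kinase gene Jak2 had 75.8 CPM in AngII and 41.6 in Vehicle, Pim1, a survival kinase gene induced by STAT proteins, 184 and 102 CPM, Stat3 377 and 225 CPM, and Socs2, a feedback inhibitor gene, 40.5 and 24.3 CPM. With Leiden clusters as populations Socs2 did not pass, at a log2 ratio of 0.52. Between AngII_VWR and AngII 0 of 10 were higher and 3 lower, with a median of -0.36 against 0.09. Socs3, the feedback inhibitor of G-CSF and interleukin-6 signals, had 125 CPM in AngII_VWR and 719 in AngII, a 5.75-fold (5.61 to 5.89) lower level. Pim1 had 57.7 CPM in AngII_VWR and 184 in AngII, and Jak2 39.2 CPM in AngII_VWR and 75.8 in AngII. These genes serve many other cytokine receptors. Fibroblasts themselves had 3.17, 1.37 and 0.276 CPM of Csf2rb and 0.839, 0.318 and 0.138 CPM of Csf3r in AngII_VWR, AngII and Vehicle.

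In macrophages the same list had 1 of 9 measured genes past 1.5-fold in AngII over Vehicle, with a median of 0.25. It was Jak2, which was higher at 72.4 CPM in AngII and 33.6 in Vehicle. Between AngII_VWR and AngII 2 were higher and 3 lower, with a median of 0.30 against 0.17 for all genes. Pim1 had 231 CPM in AngII_VWR and 595 in AngII, Socs3 133 and 253 CPM, and Jak2 47.8 and 72.4 CPM. Jak2 lay at the threshold, with a log2 ratio of -0.59 that passed in 6 of 12 other settings, which ran between -0.76 and -0.41. Socs1, another feedback inhibitor gene, was higher at 13.1 CPM in AngII_VWR and 6.55 in AngII, and Stat5a at 19.8 and 12.6 CPM, Stat5a not past 1.5-fold with median-ratio scaling, at a log2 ratio of 0.45.

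Genes next to CSF1R in its signal were examined in the same way. In AngII over Vehicle macrophages 3 of 13 measured genes were higher and 0 lower, with a median of 0.34 against -0.01 for all genes. Among them were the kinase genes Fyn, with 72.6 CPM in AngII and 33.0 in Vehicle, and Lyn, with 819 CPM in AngII and 493 in Vehicle. Between AngII_VWR and AngII 1 of 13 was higher and 2 lower, with a median of -0.31 against 0.17. Among the lower was Pik3r1, a regulatory subunit gene of PI3 kinase, at 195 CPM in AngII_VWR and 302 in AngII, while the adaptor gene Dok1 was higher at 26.3 and 16.0 CPM, though not past 1.5-fold with median-ratio scaling, at a log2 ratio of 0.51. In fibroblasts the list medians were -0.06 in AngII over Vehicle and 0.42 in AngII_VWR over AngII, and 1 of 9 passed in AngII over Vehicle, Fyn, which was lower at 110.03 CPM in AngII and 168 in Vehicle. Its log2 ratio of -0.60 passed in 8 of 12 other settings and was -0.0645 with a fibroblast rule of 2%. In AngII_VWR over AngII 2 of 10 were higher, Tyrobp at 29.4 CPM in AngII_VWR and 10.3 in AngII and Lyn at 15.8 and 8.77 CPM, both leukocyte genes that moved beside the macrophage markers given above.

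The transcription factors of mononuclear phagocytes gave 0 higher and 2 lower of 11 in AngII over Vehicle macrophages, with a median of -0.16. Klf4 had 602 CPM in AngII and 1310 in Vehicle, and Cebpa 84.3 and 127 CPM. Cebpa lay at the threshold, with a log2 ratio of -0.59 that passed in 6 of 12 other settings, which ran between -0.59 and -0.55. Between AngII_VWR and AngII 2 of 11 were higher, Maf at 1035 CPM in AngII_VWR and 622 in AngII and Cebpa at 136 and 84.3 CPM, and 1 was lower, Runx1, at 486 and 751 CPM. With median-ratio scaling Maf and Cebpa did not pass, at log2 ratios of 0.56 and 0.51, nor did Cebpa after thinning, at 0.58, or Runx1 as a mean of per-cell shares, at -0.57. In fibroblasts Runx1 was the widest difference of any list, with 230.1 CPM in AngII and 21.8 in Vehicle, a 10.6-fold (10.02 to 11.1) higher level. Maf was also higher in AngII fibroblasts, at 82.3 CPM in AngII and 44.99 in Vehicle, so that 2 of 8 measured genes were higher and 0 lower, with a median of 0.08. Of 9 measured in AngII_VWR over AngII fibroblasts, 2 were higher and 1 lower, with a median of 0.26. Cebpb was lower at 395 CPM in AngII_VWR and 742 in AngII, and Cebpa was higher at 19.2 and 9.05 CPM. Spi1, which encodes the leukocyte factor PU.1, was higher at 5.22 CPM in AngII_VWR and 1.51 in AngII, beside the higher macrophage markers of those fibroblasts, and did not pass with 5% free RNA subtracted, at a log2 ratio of 0.55.

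The protease ADAM17, with its RHBDF partners, releases CSF1 and CSF1R from the cell surface, and ADAM10 is a related protease. Of Adam17, Adam10, Rhbdf1, Rhbdf2 and the inhibitor gene Timp3, only Timp3 passed 1.5-fold in any of the 4 comparisons. The list medians were -0.15 and 0.31 over 4 measured genes in AngII over Vehicle and AngII_VWR over AngII fibroblasts, and -0.04 and -0.07 over 5 in macrophages. Timp3 was higher in AngII_VWR fibroblasts, at 974 CPM in AngII_VWR and 613 in AngII, a log2 ratio of 0.67 that passed in 8 of 12 other settings and was at least 0.54 in all 12. In macrophages it had 48.5 CPM in AngII_VWR, 9.26 CPM in AngII and 14.9 in Vehicle, and there it moved with the fibroblast markers given above between AngII_VWR and AngII. In AngII over Vehicle macrophages its log2 ratio of -0.64 was -0.43 after thinning, and subtracting 5% free RNA left no difference.

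Over the 17 combinations of population and library with at least 50 cells, the gene whose log2 level was most like that of Csf1r was the mannose receptor gene Mrc1, with a Pearson r of 0.95, followed by C1qa, Fcna, Washc2 and Adgre1, the last with 0.94. Mrc1, C1qa and Adgre1 are among the markers that define the macrophages. For Csf1 the 5 most alike were Ndst1, with 0.93, Ski, Npepps, Snx18 and Sntb2, the last with 0.88. For Il34, whose level was at most 48.6 CPM in these profiles because Schwann cells did not reach 50 cells, they were Psmd3, Gja5, Apln, Gkn3 and Higd1b, with 0.89 to 0.85. These r values are descriptions over profiles that share libraries and depth.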

How the data were processed

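Single-cell 3′ RNA libraries were made from digested aortic adventitia, 1 for each of 3 groups. The deposited matrices held raw UMI counts per gene and barcode, written by Cell Ranger 7.1.0 for AngII_VWR and 7.0.1 for AngII and Vehicle per the file headers, a difference that cannot be told apart from the group. The build was mm10 per the submitters' processing notes, and whether intronic reads were counted was not given in the sources used here. Totals were 105679209 UMIs in AngII_VWR, 141570158 in AngII and 165977330 in Vehicle.

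A barcode was kept from 300 genes and 500 UMIs upward if no more than 10% of its UMIs were mitochondrial. Scrublet (scanpy 1.11.5) scored doublets, and the top-scoring barcodes were dropped, 0.8% for every 1000 barcodes loaded into the score: 2894 in AngII_VWR, 784 in AngII and 1537 in Vehicle. Scrublet's own threshold called 0, 125 and 251 and was not used. Kept cells numbered 16125, 9115 and 12324.

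Barcodes were assigned by the share of UMIs in marker genes. Leukocytes needed 0.1% in at least 2 of 7 pan-leukocyte genes or 1% in macrophage markers, and the classes needed 1% for macrophages, 0.5% for neutrophils, 0.1% for dendritic cells, 0.2% for T and innate lymphoid, B, endothelial, lymphatic endothelial and Schwann cells and pericytes, 0.5% for mast cells and basophils, and 1% for smooth muscle. Barcodes with fibroblast and leukocyte markers together were left out. These cuts were set after the marker shares had been seen, without the 8 genes. Clusters came from 2000 variable genes without the 8 genes, 30 components, 15 neighbours and Leiden at resolution 0.8, using leidenalg 0.10.2. The 3 libraries were clustered jointly without correction for library.

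UMIs were summed per population and library and scaled to 1000000 (CPM). Intervals are exact Poisson for CPM and exact conditional binomial for ratios, and cover counting error only, not differences between mice. A gene counted as measured with at least 5 CPM in either library and 10 UMIs over both. Ratios are log2 of CPM + 1. The ratio calculation was tested on simulated independent Poisson counts, the model that the intervals assume. These had no UMIs concentrated in single cells, so the test could not show how the intervals hold for such genes. Free RNA was gauged by scaling a gene's level in its source by the source's markers found elsewhere. The named members of each list are those past 1.5-fold with the 4 largest log2 ratios. A member of the CSF1R signalling list is counted but not reported here by name. The 8 genes, the lists and the rules were chosen with earlier results of these data known. Software versions were scipy 1.17.1, pandas 2.3.3 and numpy 2.4.6 under Python 3.11.15.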

Additional observations from a re-analysis of the deposited data

Results flagged for a closer look

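Csf2rb went opposite ways in T and innate lymphoid cells and in 2 other populations between AngII_VWR and AngII. T and innate lymphoid cells had 15 UMIs in AngII_VWR and 0 in AngII, 9.53-fold higher against a floor of 3 counts in the AngII library. That fold is a point value without the counting error of the 15 UMIs, so it is not a lower limit. The log2 ratio of 4.69 depends on the added 1 CPM. Of the 15 UMIs, 10 came from 1 barcode. In macrophages the log2 ratio was -0.62, a gap of 5.31 from the T and innate lymphoid cells. In endothelial cells, with 7 UMIs in AngII_VWR and 87 in AngII, it was -1.71, a gap of 6.40. Neither difference between populations was tested, since each group had 1 library.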

How the results depend on the processing

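Each group was 1 library, so no library could be left out. No paired analysis was possible because each group is 1 library. The lower Csf1 level of AngII against Vehicle fibroblasts (log2 ratio -0.36) kept its direction in all settings tried, at -0.26 with a 2% fibroblast rule, -0.28 as a mean of per-cell shares, -0.32 after thinning, -0.29 with median-ratio scaling and -0.22 with clusters weighted equally, the last chosen after seeing the data. Csf1 in AngII_VWR against AngII (-0.15) was -0.10 with the 2% rule, -0.0121 with Leiden clusters as populations, -0.11 after thinning and -0.24 with median-ratio scaling. Csf1r in AngII_VWR against AngII macrophages (-0.53) passed 1.5-fold at -0.71 with median-ratio scaling and, chosen after seeing the data, at -0.61 with 4 clusters weighted equally and at -0.59 with clusters 4 and 5 only. Csf1r in AngII against Vehicle macrophages (-0.04) was 0.0277 with no doublets removed, 0.0161 with clusters 4 and 5 weighted equally, -0.0099 as a mean of per-cell shares and -0.005 with haemoglobin, mitochondrial and ribosomal genes left out of the total. With no filter on low values 2022 genes passed in AngII_VWR against AngII fibroblasts, against 1237 with it. In macrophages 1900 against 1237 passed in AngII over Vehicle and 3131 against 1932 in AngII_VWR over AngII. Values that turned round rested on few UMIs: Csf2 in AngII against Vehicle fibroblasts was 0.0852 with the 2% rule (-0.94 otherwise) and Csf3 in AngII_VWR against AngII fibroblasts -0.0315 with Leiden clusters (0.79 otherwise). In AngII_VWR against Vehicle, as means of per-cell shares, Csf1r in dendritic cells was -0.54 (0.61 otherwise) and Csf2rb in endothelial cells, with 3 UMIs in Vehicle, -0.30 (2.42 otherwise). The cause of these shifts was not tested. Of the other values under other settings, 952 stayed within counting error and 252 moved beyond it. The AngII_VWR library's lower depth, and populations of under 50 cells, limit what could be seen of Il34, Csf2 and Csf3.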
